A study of Mus musculus with 6 samples.

Results

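The constant-region genes of the antibody heavy chains, the kappa light chain, the J chain and the polymeric immunoglobulin receptor were followed across colon RNA of Il10 knockout and WT mice. Members were the rows of the deposited gene table whose gene name was Igha, Ighm, Ighd, Ighg1, Ighg2b, Ighg2c, Ighg3, Igkc, Jchain or Pigr, and all 10 were found among 54532 genes. The libraries were 3 labelled Il10 knockout (genotype IL10-/-) and 3 labelled WT (wild type), all C57BL/6 colons at postnatal day 56, frozen and extracted with Trizol. The labels do not say whether each library is a separate mouse, give no sex, housing or colitis score, and do not describe the Il10 allele, so a p-value here reflects variation among libraries that may be technical.

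Plasma cells of the gut wall mostly make IgA. The heavy chain is encoded by Igha and pairs with a light chain, usually kappa (Igkc). The J chain joins IgA into dimers and IgM into pentamers, and the polymeric immunoglobulin receptor (Pigr) on epithelial cells carries them into the gut lumen as secretory antibody. B cells start with IgM and IgD (Ighm, Ighd) and change class by deleting DNA between constant genes, which yields IgG (Ighg1, Ighg2b, Ighg2c, Ighg3), IgE or IgA. C57BL/6 mice carry Ighg2c in place of the Ighg2a of other strains.

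Values are FPKM, fragments per kilobase of gene scaled for library depth by the authors, so levels of different genes can be set side by side per length. Reads recovered from the FPKM numbered 14235679 to 14651559 in the knockout libraries and 13107941 to 15797928 in the WT libraries. Of these, the 10 members took 1.26%, 0.833% and 1.09% in knockout libraries 1 to 3, and 2.60% (95% Wilson interval 2.59 to 2.60), 0.242% and 0.128% (0.126 to 0.130) in WT libraries 1 to 3. Intervals cover counting error only, since reads without molecular identifiers are not independent molecules. The depth behind the deposited FPKM was 0.885, 1.07 and 1.15 times the recovered reads in knockout libraries 1 to 3. In WT libraries 1 to 3 it was 1.23, 0.836 and 0.940 times. Comparisons between libraries can therefore differ between FPKM and shares of recovered reads. Mitochondrial genes took 22.0%, 8.61% and 15.5% of recovered reads in knockout libraries 1 to 3. They took 20.3%, 11.7% and 43.4% in WT libraries 1 to 3. The part of this in the low values of WT library 3 was not tested beyond a scaling without those genes. Marker levels of tissue layers differed between libraries. Mean log2(FPKM + 1) over 12 smooth muscle markers was 5.63, 3.45 and 5.45 in knockout libraries 1 to 3 and 6.06, 6.06 and 8.55 in WT libraries 1 to 3. Their summed level was 232 to 1393 FPKM in knockout and 1810 to 11917 FPKM in WT. Of the 12, 0 were called, all had negative log2 fold changes (median -2.18), and in 11 every knockout library lay below every WT library, against 7.89% of all genes. Synpo2, Mylk, Acta2 and Cnn1, genes of the contractile apparatus, had log2 fold changes of -2.22, -1.97, -2.23 and -2.10 (adjusted p = 0.356, 0.475, 0.490 and 0.492 in limma). The part of this difference in the results below was not tested, apart from a ratio of Pigr to epithelial markers. In bulk tissue, fewer cells of a type and less RNA per cell cannot be told apart. Il10 itself stood at 13.8, 10.6 and 14.5 FPKM in the knockout libraries, against 0.757, 0.173 and 0.177 FPKM in the WT libraries. It had more RNA, not less, in the libraries labelled knockout, so it does not check the labels, and every direction below rests on them.

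None of the 10 members passed the test between the genotypes. The test was limma on log2(FPKM + 1) over the 12668 genes with a mean of at least 1 FPKM, with Benjamini-Hochberg adjustment at 0.05; all 10 members passed that filter. Called higher were 0 of 10 members, against 0.182% of all genes, and called lower were 0 of 10, against 0% of all genes. At an unadjusted p under 0.05 the higher members numbered 1, which was Ighg1, against 6.14% of all genes, and the lower members 0, against 4.03%. Limma on the recovered reads with voom weights also called 0 of the 10. Log2 fold changes, knockout minus WT, were positive for 9 members and negative for 1, with a median of 0.95, against 54.1% positive and a median of 0.04 over all tested genes. The 7 heavy-chain members share a locus, and all members but Pigr are made by B lineage cells, so these values are not independent of each other. In 2 members, Ighg1 and Pigr, every knockout library lay above every WT library in FPKM, against 8.84% of all genes. For Pigr this depended on the scaling, as given below. In 0 members did every knockout library lie below every WT library.

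**Figure D1:**
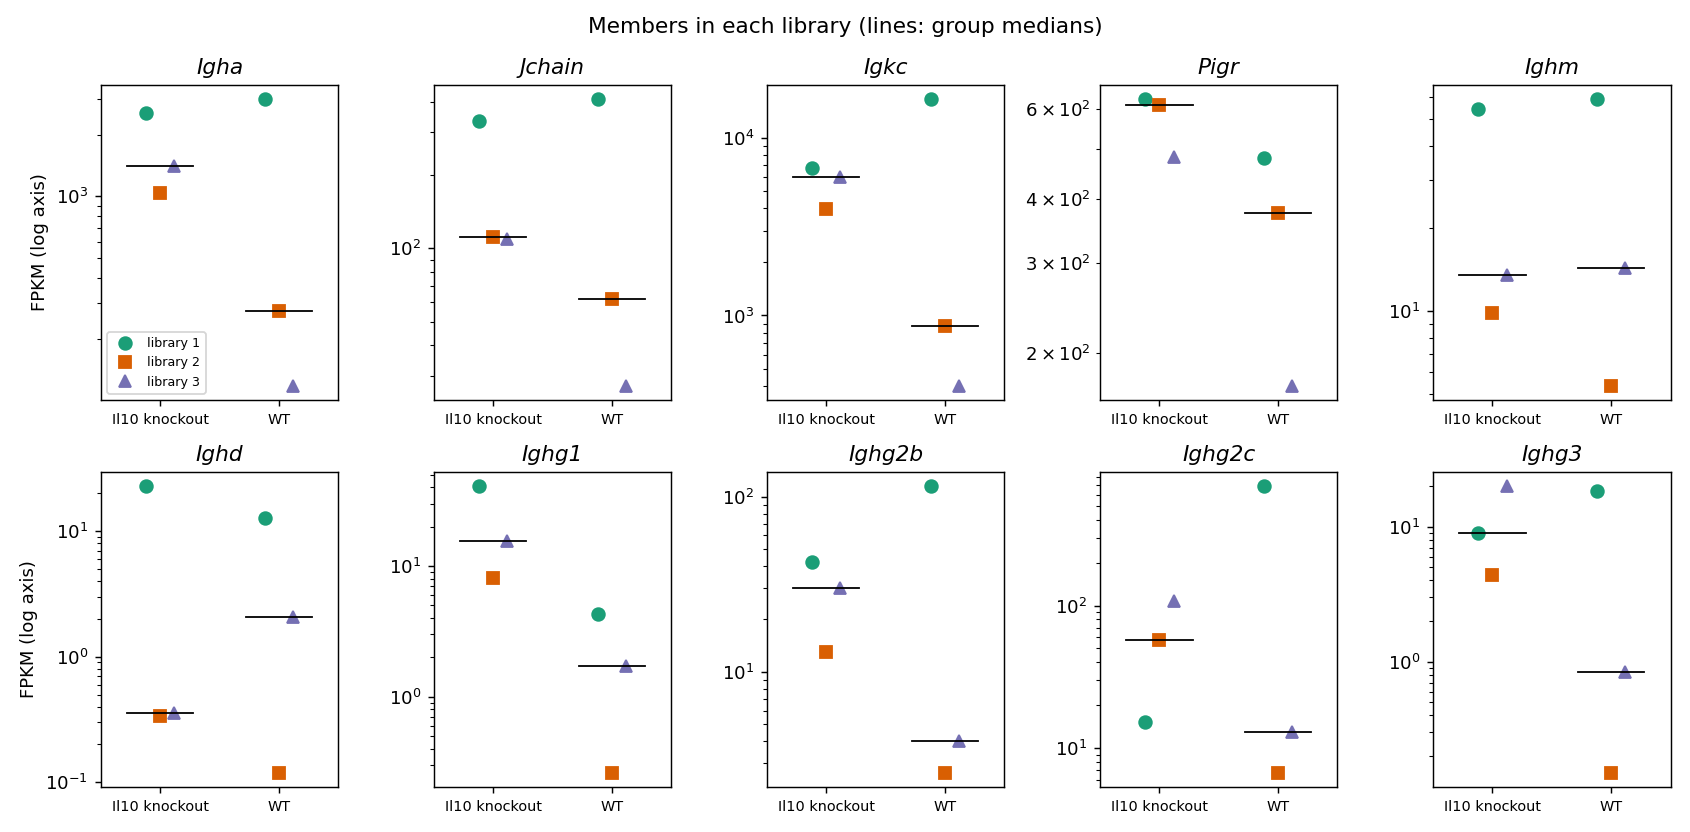
FPKM of the 10 members in each library on log axes, Il10 knockout left and WT right, with group medians as lines and the library number as colour and shape. WT library 1 is the highest library for 6 of the 10 members, and the groups are separate for Ighg1 and Pigr only.

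The members spread widely among WT libraries. Over expressed genes in general, WT libraries also differed more from each other than knockout libraries did. Chi-square of recovered reads per gene was 205 to 495 between WT libraries and 60.7 to 116 between knockout libraries. How far the spread is particular to the members was not tested. WT library 1 was the highest of the 6 libraries for 6 of 10 members, while it was the highest for 11.2% of all tested genes. The highest WT library exceeded the lowest 25.2-fold for Igha, 40.9-fold for Igkc, 102-fold for Ighg2c and 123-fold for Ighg3. Among knockout libraries the same ratios were 2.48 for Igha, 1.70 for Igkc, 7.02 for Ighg2c and 4.55 for Ighg3. Ighd was the exception in spread, with a ratio of 68.3 among knockout libraries and 106 among WT libraries.

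Igha, the IgA heavy chain, was the most abundant heavy-chain gene in every library. It stood at 2559, 1033 and 1408 FPKM in knockout libraries 1 to 3, against 2980, 276 and 118 FPKM in WT libraries 1 to 3. WT libraries 2 and 3 were below all knockout libraries and WT library 1 was above them, so the groups overlapped. The gene (ENSMUSG00000095079; GRCm38 chromosome 12, 113254830 to 113260236, minus strand) ranked 23rd, 44th and 28th by FPKM in the knockout libraries and 12th, 208th and 253rd in the WT libraries. Its log2 fold change was 1.75 (SE 1.15, adjusted p = 0.654 in limma). Without WT library 1 it was 3.09 (SE 0.62, adjusted p = 0.157), and without WT library 3 it was 0.77.

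Igkc, the kappa light chain, followed Igha with a still wider range among WT libraries. It had 6753, 3966 and 6008 FPKM in knockout libraries 1 to 3, against 16446, 873 and 402 FPKM in WT libraries 1 to 3. In WT library 1 it was the fourth most abundant gene of the table. Its group means were close, at 5576 ± 1443 FPKM in knockout and 5907 ± 9130 FPKM in WT (SD, n = 3 each), and the log2 fold change was 1.60 (SE 1.31, adjusted p = 0.730 in limma). Without WT library 1 the log2 fold change was 3.20 (adjusted p = 0.126). The ratio of Igkc to the summed FPKM of the 7 heavy-chain members stayed within a narrow range, at 2.46, 3.52 and 3.77 in the knockout libraries and 4.24, 3.0004 and 2.61 in the WT libraries. On the log2 scale this ratio averaged 1.68 ± 0.33 in knockout and 1.68 ± 0.36 in WT (SD, n = 3 each; exact two-sided permutation p = 1.00, adjusted over the 6 shares and ratios tested 1.00).

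Jchain (ENSMUSG00000067149; GRCm38 chromosome 5, 88519809 to 88527891, minus strand) encodes the small protein that links IgA and IgM monomers. Its levels were 334, 112 and 109 FPKM in knockout libraries 1 to 3, against 410, 62.0 and 27.3 FPKM in WT libraries 1 to 3. Both libraries numbered 1 were high and the groups overlapped. The log2 fold change was 0.84 (SE 1.00, adjusted p = 0.827 in limma), 1.93 without WT library 1 and -8.7e-05 without WT library 3. Relative to its partner, Igha exceeded Jchain 7.66-fold, 9.26-fold and 12.9-fold in the knockout libraries, against 7.28-fold, 4.45-fold and 4.33-fold in the WT libraries. Every knockout library was above every WT library, the closest pair being 7.66 and 7.28. This ratio was not among the planned ones and has no test. Against all heavy chains together the groups overlapped: the log2 ratio of Jchain to the heavy-chain sum averaged -3.40 ± 0.42 in knockout and -2.64 ± 0.54 in WT (SD, n = 3 each). That difference of -0.77 gave an exact two-sided permutation p of 0.2 (adjusted 0.75), where 3 libraries against 3 allow no p below 0.1.

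**Figure D2:**
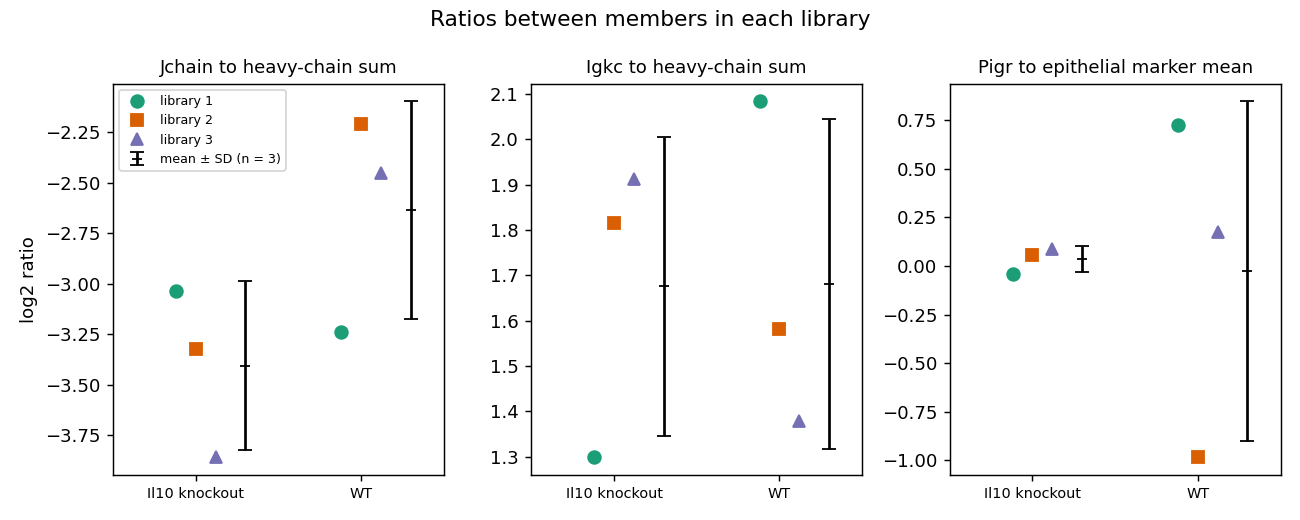
Log2 ratios (log2 of FPKM + 1 on each side) of Jchain and of Igkc to the summed heavy-chain members, and of Pigr to the mean of 15 epithelial markers, in each library, Il10 knockout left and WT right, with mean ± SD (n = 3) as bars. The groups overlap in all 3 panels, and the ratio of Pigr to epithelial markers ranges from -0.98 to 0.73 among WT libraries.

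Ighm and Ighd, the IgM and IgD heavy chains, overlapped between the genotypes, and their levels were highest in the libraries with most B cell marker RNA. Ighm stood at 54.4, 9.85 and 13.6 FPKM in knockout libraries 1 to 3, against 59.0, 5.34 and 14.4 FPKM in WT libraries 1 to 3. Ighd stood at 22.8, 0.335 and 0.355 FPKM in the knockout libraries, against 12.7, 0.12 and 2.08 FPKM in the WT libraries. For both genes the libraries numbered 1 were the high ones in each genotype. The low Ighd values rested on 10 and 11 reads in knockout libraries 2 and 3 and on 3 reads in WT library 2. Log2 fold changes were 0.19 (SE 0.93, adjusted p = 0.965) for Ighm and -0.04 (SE 1.34, adjusted p = 0.995) for Ighd in limma. Mean log2(FPKM + 1) over the 15 B cell markers that passed the filter, of 20 listed, was 2.78, 0.95 and 0.98 in knockout libraries 1 to 3 and 2.70, 0.68 and 1.08 in WT libraries 1 to 3. Their summed level was 18.9 to 110 FPKM in knockout and 11.8 to 98.6 FPKM in WT. Fcer2a, the low-affinity IgE receptor of mature B cells, was at 0 reads in knockout library 3 and WT library 2. Library 1 of each genotype thus held more B cell marker RNA than the rest, and the part of this in the member values was not tested. Without both libraries numbered 1, a setting chosen after the data were seen, the adjusted p of every member stayed above 0.05 and the log2 fold change of Ighg1 was 2.73 (adjusted p = 0.246).

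The IgG genes differ in their hinge, the flexible stretch between the arms and the stem of the antibody. The hinge exons of the 4 members are shown from GENCODE M21 transcripts (GRCm38, chromosome 12, minus strand, 5′ to 3′), with in-frame TGT or TGC codons, which encode the cysteines that can link the chains, in capitals.
Ighg1: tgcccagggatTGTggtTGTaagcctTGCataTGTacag
Ighg2b: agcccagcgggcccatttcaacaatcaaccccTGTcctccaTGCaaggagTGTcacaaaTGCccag
Ighg2c: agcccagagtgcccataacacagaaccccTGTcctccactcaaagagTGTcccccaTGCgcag
Ighg3: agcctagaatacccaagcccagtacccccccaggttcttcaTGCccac
They lie at chr12:113329844-113329882 for Ighg1, chr12:113307261-113307326 for Ighg2b, chr12:113288263-113288325 for Ighg2c and chr12:113360529-113360576 for Ighg3. The exons are 39, 66, 63 and 48 bases long and hold 4, 4, 3 and 1 such codons. Over whole transcripts, 4.15% of 50-base windows of Ighg2b and 5.49% of those of Ighg2c occurred in another constant gene, 70 of them shared between these 2 genes, against 0.393% for Ighg1, 1.58% for Ighg3 and 0% for Igha, Ighm, Ighd and Igkc. The handling of reads with several matches is not given in the sources used here, so the separate values of Ighg2b and Ighg2c carry that uncertainty.

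Ighg1 was the member furthest from equal levels in the genotypes. It stood at 40.99, 8.17 and 15.5 FPKM in knockout libraries 1 to 3, against 4.33, 0.263 and 1.73 FPKM in WT libraries 1 to 3. Every knockout library was above every WT library, the closest pair being 8.17 and 4.33 FPKM. The values rested on 1341, 333 and 654 reads in the knockout libraries and on 181, 9 and 58 reads in the WT libraries, and the 9 reads allow 0.12 to 0.499 FPKM (95% exact Poisson interval). Means were 21.5 ± 17.2 FPKM in knockout and 2.11 ± 2.06 FPKM in WT (SD, n = 3 each), a ratio of 10.2. The log2 fold change was 2.81 (SE 0.69, unadjusted p = 0.00514, adjusted p = 0.277 in limma), and the exact two-sided permutation p of 0.1 was the smallest possible. The log2 fold change was positive in all 20 alternative settings, from 1.71 to 3.77, and its adjusted p lay between 0.0554 and 0.667, so it was called in none of them.

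The other IgG genes overlapped between the genotypes. Ighg2c stood at 15.2, 57.2 and 107 FPKM in knockout libraries 1 to 3, against 689, 6.74 and 12.9 FPKM in WT libraries 1 to 3. Ighg2b stood at 42.5, 12.9 and 30.0 FPKM in the knockout libraries, against 115, 2.66 and 4.04 FPKM in the WT libraries. Ighg3 stood at 9.05, 4.40 and 20.05 FPKM in the knockout libraries, against 18.5, 0.151 and 0.832 FPKM in the WT libraries. For Ighg2b and Ighg3, WT libraries 2 and 3 were below every knockout library and WT library 1 was not. For Ighg2c, knockout library 1 was also low, near the level of WT library 3. Log2 fold changes were 1.04 (SE 1.29, adjusted p = 0.832) for Ighg2b, 0.15 (SE 1.69, adjusted p = 0.985) for Ighg2c and 1.60 (SE 1.07, adjusted p = 0.660) for Ighg3 in limma. Group means went the other way for Ighg2b, at 28.5 ± 14.9 FPKM in knockout and 40.6 ± 64.5 FPKM in WT, and for Ighg2c, at 59.8 ± 45.9 FPKM in knockout and 236 ± 392 FPKM in WT (SD, n = 3 each). Leaving out WT library 1 moved the log2 fold changes to 2.63 for Ighg2b, 2.17 for Ighg2c and 2.85 for Ighg3 (adjusted p = 0.156, 0.391 and 0.166).

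**Figure D3:**
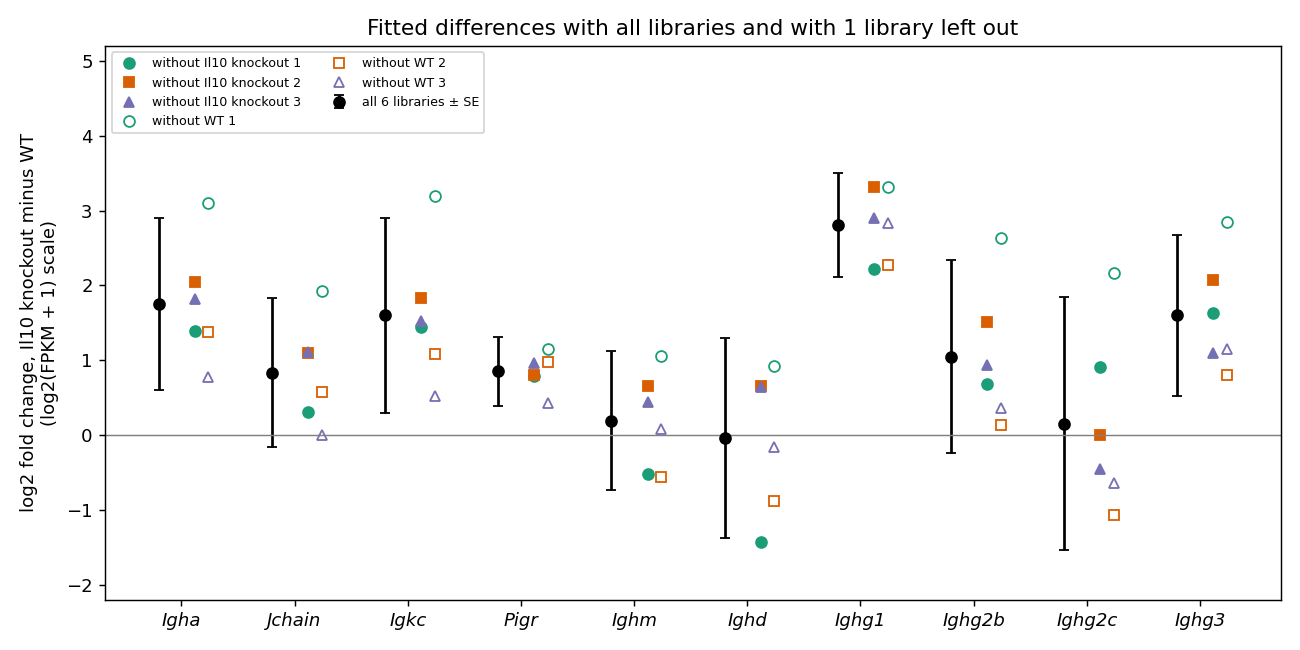
Log2 fold change of each member, as the Il10 knockout mean less the WT mean of log2(FPKM + 1), with all 6 libraries (black, ± SE) and with 1 library left out (filled symbols, a knockout library left out; open symbols, a WT library left out). Leaving out WT library 1 gives the highest value for 9 of the 10 members, and for Ighg1 it matches the value without knockout library 2 at 3.32.

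IgA made up most heavy-chain transcript in every library. The Igha share of the summed heavy-chain FPKM was 93.3%, 91.8% and 88.3% in knockout libraries 1 to 3, against 76.8%, 94.7% and 76.7% in WT libraries 1 to 3. It averaged 91.1% ± 2.53 in knockout and 82.8% ± 10.4 in WT (SD, n = 3 each), a difference of 8.35 percentage points with an exact two-sided permutation p of 0.4 (adjusted 0.75). The IgG share was 3.93%, 7.34% and 10.8% in the knockout libraries, against 21.3%, 3.37% and 12.7% in the WT libraries (difference -5.09 points, exact permutation p = 0.5, adjusted 0.75). The Ighm and Ighd share was 2.81%, 0.904% and 0.873% in the knockout libraries, against 1.85%, 1.88% and 10.7% in the WT libraries (difference -3.27 points, exact permutation p = 0.3, adjusted 0.75). None of these shares separated the genotypes, and the groups overlapped in each.

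Within IgG the libraries differed in which isotype led. Ighg2c was the leading IgG gene in 5 libraries, with 69.2% and 62.0% of summed IgG FPKM in knockout libraries 2 and 3 and 83.3%, 68.7% and 66.1% in WT libraries 1 to 3. In knockout library 1 it held 14.1%, while Ighg1 held 38.0% and Ighg2b 39.5%. Such shares depend on gene length, which was 1326 bases for Ighg2c, against 2592 for Ighg1, 2678 for Ighg2b and 2512 for Ighg3. By recovered reads Ighg2c led in the same libraries, but by less. It had 118 reads against 94 for Ighg2b in WT library 2, and 221 against 140 in WT library 3. The Ighg1 share of IgG was 38.0%, 9.88% and 8.98% in the knockout libraries, against 0.523%, 2.68% and 8.88% in the WT libraries. Every knockout library was above every WT library in that share, but knockout library 3 and WT library 3 were 8.98% and 8.88%. The Ighg3 share was 8.40%, 5.33% and 11.6% in the knockout libraries, against 2.23%, 1.54% and 4.26% in the WT libraries, also without overlap. These shares within IgG were chosen after the data were seen and have no test.

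**Figure D4:**
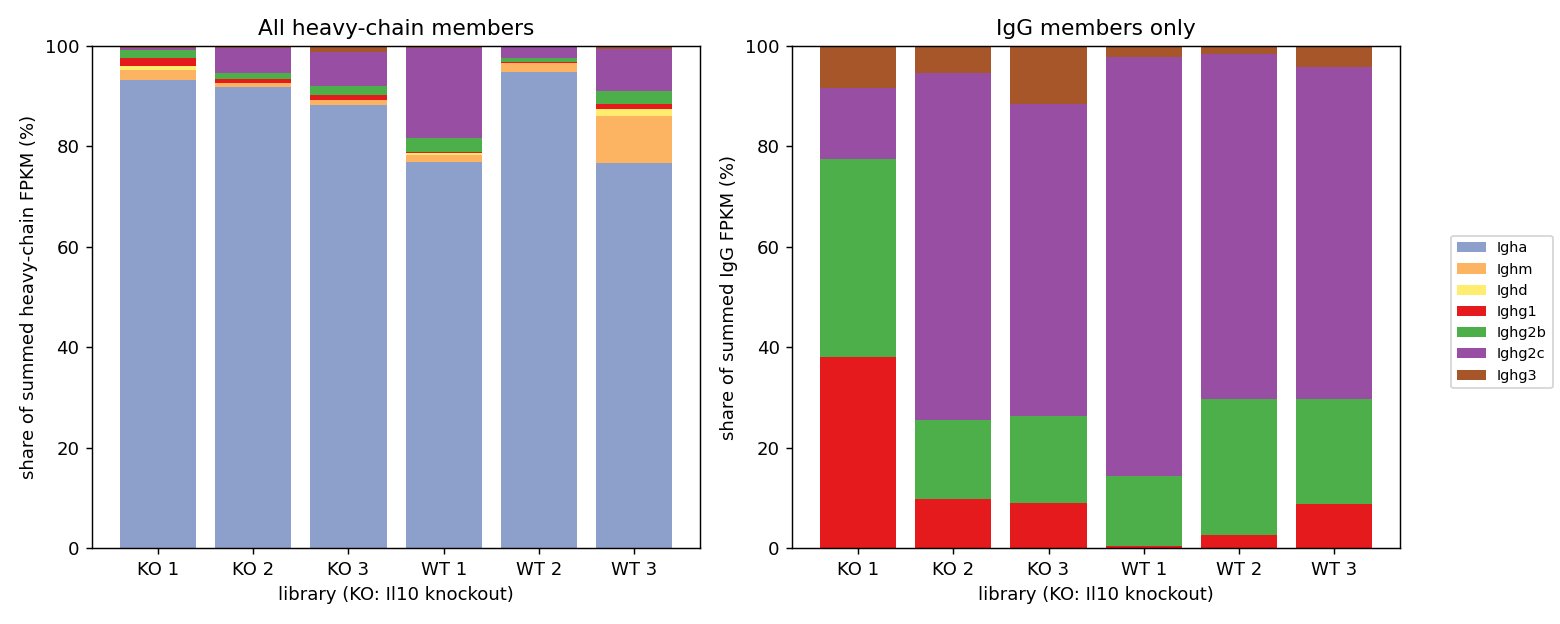
Stacked shares of FPKM, in percent, of the 7 heavy-chain members (left) and of the 4 IgG members (right) in each library, Il10 knockout (KO) before WT. Igha takes 76.7% to 94.7% of the heavy-chain sum in every library, and knockout library 1 has a low Ighg2c share of IgG, at 14.1%.

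The other immunoglobulin constant genes included a large lambda light-chain signal in 1 library. Iglc1 stood at 2167, 113 and 163 FPKM in knockout libraries 1 to 3, against 243, 12.01 and 18.7 FPKM in WT libraries 1 to 3 (log2 fold change 3.11, SE 1.46, adjusted p = 0.525 in limma). Lambda genes Iglc1 to Iglc3 together made 25.3%, 3.46% and 3.41% of light-chain constant FPKM in the knockout libraries, against 2.26%, 2.35% and 7.05% in the WT libraries. Knockout library 1 thus stood apart in the light chains as it did within IgG. Iglc2 and Iglc3 had log2 fold changes of 1.08 and 0.83 (adjusted p = 0.770 and 0.855), and 10.5% and 10.7% of their 50-base windows were shared between them. Ighe, the IgE heavy chain, was at 0.35, 0.0802 and 0.0774 FPKM in the knockout libraries, against 0.313, 0 and 0 FPKM in the WT libraries, and Iglc4 was at 0 reads in all libraries.

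Pigr (ENSMUSG00000026417; GRCm38 chromosome 1, 130826684 to 130852249, plus strand), the epithelial carrier of IgA and IgM, varied least of the members. It stood at 626, 609 and 483 FPKM in knockout libraries 1 to 3, against 480, 375 and 173 FPKM in WT libraries 1 to 3. The groups did not overlap in FPKM, but knockout library 3 and WT library 1 were 483 and 480 FPKM. These values rested on 31680 of 14235679 and 31200 of 13107941 recovered reads. The depth behind the deposited FPKM was 1.15 and 1.23 times the recovered reads of these libraries. Knockout library 1 had 31779 of 14262740 recovered reads. As a share of recovered reads WT library 1 was above knockout libraries 1 and 3, so the groups overlapped on that scale. Means were 572 ± 78.0 FPKM in knockout and 343 ± 156 FPKM in WT (SD, n = 3 each), a ratio of 1.67. The log2 fold change was 0.85 (SE 0.46, adjusted p = 0.584 in limma; exact two-sided permutation p = 0.1, the smallest possible). It was 0.42 without WT library 3, the library with 43.4% mitochondrial reads, and 1.16 without WT library 1. Scaled without immunoglobulin and mitochondrial genes, it was 0.65.

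Pigr was also read against the epithelium it is made in. All 15 epithelial markers passed the filter, with 0 called, 14 positive and 1 negative, and a median log2 fold change of 0.81, against 0.85 for Pigr. Krt18, Elf3, Krt8 and Krt20, keratins and an epithelial transcription factor, had log2 fold changes of 0.92, 1.05, 1.21 and 1.42 (adjusted p = 0.462, 0.544, 0.619 and 0.634 in limma). The summed level of all 15 markers was 11515 to 17802 FPKM in knockout and 3310 to 17692 FPKM in WT. The difference between log2 Pigr and the epithelial mean was -0.040, 0.056 and 0.087 in the knockout libraries, against 0.73, -0.98 and 0.18 in the WT libraries. It averaged 0.034 ± 0.066 in knockout and -0.027 ± 0.87 in WT (SD, n = 3 each), a difference of 0.061 with an exact two-sided permutation p of 1.00 (adjusted 1.00). Relative to epithelial markers Pigr was thus near even in the knockout libraries and spread widely in WT, where the library with the highest epithelial mean, WT library 2, had the lowest ratio. Igha exceeded Pigr 4.09-fold, 1.70-fold and 2.92-fold in the knockout libraries and 6.20-fold in WT library 1, while it was 0.736 and 0.684 times the Pigr level in WT libraries 2 and 3.

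**Figure D5:**
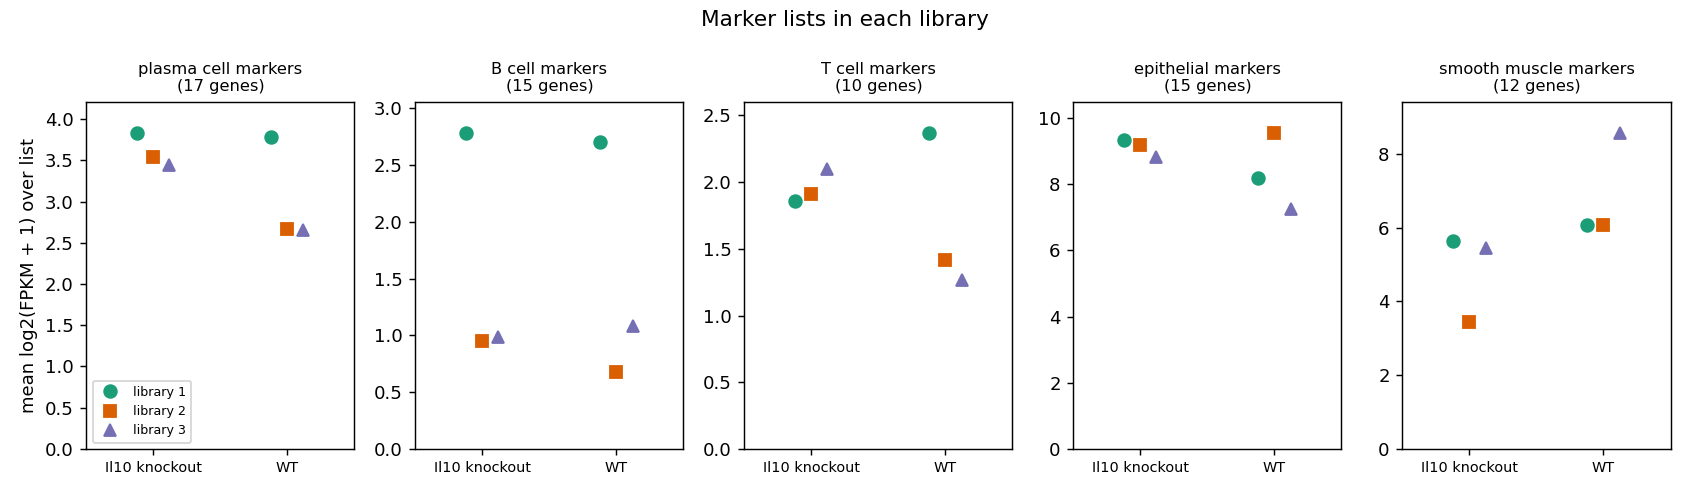
Mean log2(FPKM + 1) over the markers of 5 cell types in each library, Il10 knockout left and WT right, with the library number as colour and shape. B cell markers are high in library 1 of each genotype (2.78 in knockout and 2.70 in WT), and smooth muscle markers are highest in WT library 3 at 8.55.

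Among WT libraries the mean level of the plasma cell markers was highest in WT library 1, as Igha and Igkc were. Their mean log2(FPKM + 1), over 17 of 21 listed genes that passed the filter, was 3.83, 3.54 and 3.44 in knockout libraries 1 to 3 and 3.78, 2.67 and 2.66 in WT libraries 1 to 3. On this scale WT library 1 was above knockout libraries 2 and 3, so the groups overlapped. Summed levels were 416 to 670 FPKM in knockout and 204 to 386 FPKM in WT, and none of the 21 listed genes was at 0 in any library. Of the 17, 0 were called, 15 had positive and 2 negative log2 fold changes, and the median was 0.55. Cd38, a surface enzyme also made by other cells, had 319, 190 and 126 FPKM in the knockout libraries, against 73.8, 60.0 and 15.5 FPKM in the WT libraries (log2 fold change 2.23, adjusted p = 0.356 in limma). The summed levels it is part of were 670, 506 and 416 FPKM in knockout libraries 1 to 3. In WT libraries 1 to 3 they were 386, 260 and 204 FPKM. Cd38 thus made up more of the sum in each knockout library than in any WT library. Xbp1, the transcription factor of secretory cells, had a log2 fold change of 0.67, Creld2, an endoplasmic reticulum chaperone partner, of 0.80, and Sec11c, a signal peptidase subunit, of 0.55 (adjusted p = 0.553, 0.571 and 0.578). These 4 genes were named for their smallest p. Mzb1 and Tnfrsf17, plasma cell genes not named by p, were highest in WT library 1 and overlapped between the groups. Their log2 fold changes were 1.05 and -0.43 (adjusted p = 0.762 and 0.866 in limma). Sdc1, another plasma cell gene, went the other way among WT libraries. It was highest in WT library 2 at 62.3 FPKM, against 23.8 FPKM in WT library 1 (log2 fold change 0.72, adjusted p = 0.707 in limma). The part of plasma cell content in the member values was not tested. Of 10 T cell markers all were tested, 0 were called, 9 were positive and 1 negative, with a median of 0.26. Their summed level was 28.9 to 40.1 FPKM in knockout and 16.8 to 48.2 FPKM in WT. Cd3g, Trac, Cd5 and Cd3e, T cell receptor and surface genes, had log2 fold changes of 0.68, 0.74, 0.47 and 0.34 (adjusted p = 0.533, 0.709, 0.748 and 0.748 in limma).

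Signals that steer class switching and plasma cells were not called either. Of 14 tested genes of 19 listed, 0 were called, 10 were positive and 4 negative, with a median of 0.36. Tnfsf13b, the B cell survival factor BAFF, had 3.62, 3.87 and 3.90 FPKM in knockout libraries 1 to 3, against 1.91, 1.64 and 0.642 FPKM in WT libraries 1 to 3 (log2 fold change 1.04, adjusted p = 0.304 in limma). Ifng, which favours the IgG2 isotypes in mice, had 1.41, 6.73 and 3.32 FPKM in the knockout libraries, against 1.34, 0.234 and 0.179 FPKM in the WT libraries (1.52, adjusted p = 0.396). Cxcl12, a chemokine that holds plasma cells, had a log2 fold change of -0.81, and Madcam1, the gut homing ligand on vessels, of 1.01 (adjusted p = 0.455 and 0.490). Of 10 tested class switching and germinal centre genes of 18 listed, 0 were called and 8 were positive, with a median of 0.12. Cd40, Batf, Icosl and Rgs13, the 4 with the smallest p, had log2 fold changes of 0.75, 0.72, 0.40 and -0.56 (adjusted p = 0.507 to 0.696). Of the 15 tested B cell markers 0 were called, 7 were positive and 8 negative, with a median of -0.0084. Ciita, which drives MHC class II genes in B cells and other presenting cells, had a log2 fold change of 1.76, Blk, a B cell kinase, of 0.45, Cd83 of -0.87 and Spib, a B cell transcription factor, of -0.72 (adjusted p = 0.306, 0.813, 0.637 and 0.777).

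Receptors that bind antibody were mixed. Of 9 tested Fc receptor genes of 12 listed, 0 were called, 6 were positive and 3 negative, with a median of 0.37. Fcer1g, the shared signalling chain, had 42.1, 83.8 and 86.4 FPKM in knockout libraries 1 to 3, against 43.7, 15.9 and 24.5 FPKM in WT libraries 1 to 3 (log2 fold change 1.35, adjusted p = 0.436 in limma). The IgG receptors Fcgr3, Fcgr4 and Fcgr2b had log2 fold changes of 1.51, 1.14 and 1.12 (adjusted p = 0.438, 0.462 and 0.559). In each of these 4 genes WT library 1 was above knockout library 1, so the groups overlapped. These receptors are also made by myeloid cells. All 10 general leukocyte and myeloid markers were positive, and their summed level was 1315 to 2138 FPKM in knockout and 106 to 472 FPKM in WT. The median log2 fold change was 1.51, and the 2 called were S100a8 and S100a9, the subunits of calprotectin. Csf3r, the G-CSF receptor, and Itgam, an integrin chain of myeloid cells, had log2 fold changes of 2.03 and 1.15 (adjusted p = 0.103 and 0.360). The part of myeloid content in the Fc receptor values was not tested.

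Pigr lies in a small family of antibody receptors next to the targeted gene. Fcamr, a receptor for IgA and IgM, and Fcmr, the IgM receptor of B cells, lie on either side of Pigr, and the end of Pigr is 167.6 kb from the start of Il10 with 4 genes between. No source used here gives the origin of the sequence around the Il10 allele. Fcmr had 4.34, 0.0366 and 0 FPKM in knockout libraries 1 to 3, against 2.998, 0 and 0.847 FPKM in WT libraries 1 to 3, again with the libraries numbered 1 highest. Fcamr had 1.95, 0.632 and 0.770 FPKM in the knockout libraries, against 2.85, 0 and 0.931 FPKM in the WT libraries. Their log2 fold changes were -0.14 and 0.065 (adjusted p = 0.970 and 0.982 in limma), and for both the groups overlapped, unlike Pigr in FPKM.

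Pigr is known to respond to inflammatory cytokines, interferon regulatory factors and upstream stimulatory factors that bind E-boxes. Its promoter and that of Jchain, the partners of IgA in secretion, are shown from RefSeq on GRCm38.p6, as the 250 bases before and 50 bases after the start, 5′ to 3′ on the strand of the gene. Capitals mark matches on either strand to the E-box CACGTG and the interferon regulatory factor half-site AANNGAAA in Pigr, and to AANNGAAA and the E-box CACCTG in Jchain.
Pigr, chr1:130826434-130826733, plus strand: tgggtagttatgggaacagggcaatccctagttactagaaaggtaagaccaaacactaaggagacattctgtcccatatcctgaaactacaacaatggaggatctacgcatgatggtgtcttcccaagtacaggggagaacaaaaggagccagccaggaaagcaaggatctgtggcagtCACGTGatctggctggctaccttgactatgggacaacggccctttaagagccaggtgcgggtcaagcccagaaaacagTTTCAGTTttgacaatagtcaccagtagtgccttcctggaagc
Jchain, chr5:88527848-88528147, minus strand: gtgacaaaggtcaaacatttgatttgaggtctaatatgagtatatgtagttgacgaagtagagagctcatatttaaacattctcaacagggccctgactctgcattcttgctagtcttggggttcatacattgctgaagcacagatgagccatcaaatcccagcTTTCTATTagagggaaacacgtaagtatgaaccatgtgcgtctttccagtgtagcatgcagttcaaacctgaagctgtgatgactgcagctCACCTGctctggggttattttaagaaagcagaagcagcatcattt
Pigr held 1 CACGTG, which begins 71 bases before the start and occurs in 7.15% of 32851 promoters. Each promoter held 1 AANNGAAA, a motif of 23.9% of promoters, which begins 7 bases after the first base of Pigr and 86 bases before the start of Jchain. Jchain held 1 CACCTG, and Pigr held another that is left in lower case, a motif of 20.2% of promoters. Letters of a longer interferon-stimulated response element (in 3.44% of promoters), of the octamer ATGCAAAT (1.74%) and of a kappa B site (0.155%) were in neither window. These matches describe the letters and say nothing of binding.

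The inducers and regulators of Pigr had mostly positive log2 fold changes. Of the 20 listed genes all were tested and 0 were called. At an unadjusted p under 0.05 the higher genes numbered 6, against 6.14% of all genes. Log2 fold changes were positive for 17 and negative for 3 (median 0.34), against 54.1% positive and a median of 0.04 over all genes. In 5 of the 20 every knockout library lay above every WT library, against 8.84% of all genes. Tnf had 21.6, 39.5 and 20.6 FPKM in knockout libraries 1 to 3, against 3.74, 1.20 and 2.83 FPKM in WT libraries 1 to 3 (log2 fold change 2.98, adjusted p = 0.0586 in limma). Il4ra, a receptor chain for IL-4 and IL-13, and Il1b had log2 fold changes of 1.77 and 3.46 (adjusted p = 0.103 and 0.201). Il17a, a cytokine that raises Pigr in mouse gut, was at 0 reads in all WT libraries and at 0.812, 4.34 and 2.04 FPKM in the knockout libraries (adjusted p = 0.299). For these 4 genes knockout library 2 was the highest and the groups did not overlap. They were named for their smallest p, which favours separate groups. Pigr was highest in knockout library 1 in FPKM and in knockout library 2 as a share of recovered reads.

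The genes most like 3 of the members across the 6 libraries were ranked by Pearson's r of log2(FPKM + 1), leaving out immunoglobulin gene segments and predicted genes. They are the highest values picked from 12668 genes over 6 libraries that share their depth and tissue makeup, and have no test. For Igha they were Gpr171, Hvcn1, Gimap3 and AI467606 (r 0.981 to 0.996). Gpr171, a G protein-coupled receptor gene, had 5.13, 2.97 and 4.22 FPKM in the knockout libraries, against 6.71, 0.953 and 0.348 FPKM in the WT libraries. For Ighg1 they were Ppp1r21, Tmem126a, Pipox, Manf and Dhx38 (r 0.969 to 0.986). Manf, an endoplasmic reticulum stress protein, had 46.4, 34.2 and 31.9 FPKM in the knockout libraries, against 23.1, 11.2 and 14.7 FPKM in the WT libraries. For Pigr they were Ly6a, Aldh1l1, Psmb9, Slc5a1 and Lman2 (r 0.986 to 0.996). Psmb9, an immunoproteasome subunit, had 63.9, 57.4 and 55.1 FPKM in the knockout libraries, against 45.6, 27.97 and 10.002 FPKM in the WT libraries. Immunoglobulin genes, 151 of the 12668 tested, made up 13 of the 100 most alike genes for Igha, 5 for Ighg1 and 0 for Pigr. At that low share, 0 of 100 for Pigr is no contrast with genes at large.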

How the data were processed

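Colon RNA was measured in 6 libraries. Per the labels' protocols, libraries were made with an NEBNext Ultra kit from total RNA, and per the submitters' processing notes Bowtie 0.12.2 and the builds hg38 and mm8 were named without a role. The authors deposited FPKM per gene; no source used here names the counting tool, strand setting or read length. All 10 members had the coordinates of GENCODE M21 (GRCm38), as did 98.3% of matched genes. FPKM times gene length gave whole multiples of 1 step per library (tolerance 0.01) for 100% of values above 0, which served as recovered reads. Chi-square per gene was 60.7 or more for every pair of libraries, so none was a repeat.

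Groups came from sample titles. Values were tested as log2(FPKM + 1), which understates changes of low genes, at a mean FPKM of at least 1, with limma 3.58.1 (eBayes with trend) in R 4.3.3 and Benjamini-Hochberg adjustment at 0.05. Shares and ratios used exact permutation tests (scipy 1.17.1). In 5 simulated runs on 12668 genes this comparison recovered 1.6% of genes whose simulated log2 change was 1, 64.0% where it was 2 and 88.8% where it was 3. The changed genes were drawn at random from all tested genes. These rates are therefore not those of the members, whose SE ran from 0.46 for Pigr to 1.69 for Ighg2c. Members and lists were chosen with earlier results of these data known. Named were all members, up to 4 genes with the smallest p per list, the other immunoglobulin constant genes, Fcamr, Fcmr and Il10, and for Igha, Ighg1 and Pigr the 5 most alike genes, of which 1 for Igha is not reported here. Fcer2a, Iglv1, Iglv2, Mzb1, Tnfrsf17 and Sdc1 were chosen after their values were seen. Other settings tried were pseudocounts, filters, scalings, weights, a replicate block, voom on recovered reads (2 genes called) and leaving out each library.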

Additional observations from a re-analysis of the deposited data

How the results depend on the processing

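No member was called in any of the 20 alternatives. Ighg1 and Pigr kept a positive log2 fold change in all 20, Pigr between 0.42 and 1.16. With a weight per library, which rests the WT side on WT library 1 (weights 2.76, 0.198 and 0.465 for WT libraries 1 to 3), the sign turned for Igha (-0.31), Ighm (-1.43), Ighg2b (-1.50), Ighg2c (-2.53), Ighg3 (-0.40), Igkc (-0.75) and Jchain (-0.89). Quantile normalization turned Ighm (-0.073) and Ighg2c (-0.031), and TPM without immunoglobulin and mitochondrial genes turned Ighg2c (-0.018). TPM moved the median of all genes to 0.15 and TPM without those genes to -0.14. Leaving out each library gave -0.56 to 1.06 for Ighm, -1.42 to 0.92 for Ighd, -1.07 to 2.17 for Ighg2c, -8.7e-05 to 1.93 for Jchain, -0.16 to 0.20 for the log2 ratio of Igkc to heavy chains and -0.42 to 0.44 for Pigr against epithelial markers. Without both libraries numbered 1, the IgG share difference was 1.06 points and the Igkc ratio difference 0.38. The cause was not tested.

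The count of 23 called genes over the whole table was 9 with a pseudocount of 0.01, 4 with no filter, 46 with TPM, 2 with voom, 331 with a weight per library, 7 with a replicate block, 4 to 29 with 1 library left out, and 0 by limma without both libraries numbered 1, where 1324 genes had an unadjusted p under 0.05. Same-numbered libraries deviated together with r of -0.149, 0.180 and 0.396 over genes, so the numbers were not taken to pair the libraries. With the block the adjusted p of Ighg1 was 0.0554. Depth limits the values of Ighd, Ighg1 and Ighg3 in WT library 2, which rest on 3, 9 and 5 reads.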

Other observations

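Iglv1, a lambda variable gene chosen after its values were seen, had the same order of libraries at the top as Iglc1, with 676, 101 and 86.3 FPKM in Il10 knockout libraries 1 to 3, against 128, 7.55 and 10.9 FPKM in WT libraries 1 to 3 (log2 fold change 2.95, adjusted p = 0.487 in limma). Iglv2 did not, with 10.8, 15.3 and 7.88 FPKM in the knockout libraries, against 40.0, 1.24 and 3.17 FPKM in the WT libraries. Iglc2 had 81.4, 27.1 and 29.2 FPKM in the knockout libraries, against 102, 6.31 and 8.85 FPKM in the WT libraries. Iglc3 had 42.1, 2.25 and 20.1 FPKM in the knockout libraries, against 35.2, 2.68 and 2.91 FPKM in the WT libraries. By FPKM, knockout library 1 was thus far above WT library 1 in Iglc1 and Iglv1 and slightly above it in Iglc3. Knockout library 1 was below WT library 1 in Iglc2 and Iglv2.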
